A study of Homo sapiens with 4 samples.

Results

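The genes described here make cholesterol and fatty acids or control that synthesis. The list held 31 genes, and a gene was represented by its brightest probe set among those that the platform annotation assigns to that gene alone. Such a probe set was found for 27 of the 31, out of 19740 genes named on the arrays. CYP51A1 and FADS1 are listed only on probe sets that carry a second symbol, FDFT1 and ACSL3 have no probe set named here, and these 4 were not analysed among the members. RNA came from cultured human lung adenocarcinoma lines, 1 array per group. The groups were CL1-0 cells with a PSAT1 expression vector, CL1-0 cells with an empty vector, CL1-5 cells with a short hairpin against PSAT1 and CL1-5 cells with a non-silencing hairpin. Per the labels, the constructs were stably introduced and 2 weeks of puromycin selected the cells, and CL1-5 is a more invasive line derived from CL1-0. PSAT1 is the aminotransferase of serine synthesis. The sources used here do not say whether the transduced cells were clones or pools.

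Cells build cholesterol from acetyl-CoA through mevalonate, isoprenoids, squalene and lanosterol, and build fatty acids from the same acetyl-CoA by way of malonyl-CoA. The membrane-bound transcription factors SREBP1 and SREBP2, encoded by SREBF1 and SREBF2, drive both routes. When sterols are scarce, the escort protein SCAP carries them from the endoplasmic reticulum to the Golgi, where proteases release the active factor, and when sterols are plentiful INSIG proteins hold SCAP back. SREBP2 acts mainly on sterol genes and SREBP1 mainly on fatty acid genes, and INSIG1 is itself a target.

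Signals are linear MAS5 intensities. Signals under 49.0, the pooled median signal, were raised to that floor before ratios were taken, and all 27 genes lay above it on all 4 arrays. With 1 array per group no test was possible, so "rose", "fell", "higher" and "lower" mark a difference of at least 2-fold, and smaller differences are given as log2 ratios without a verb. Where a gene had several probe sets above the floor, their log2 ratios spread with an SD of 0.26 within CL1-0, 0.17 within CL1-5 and 0.51 between the lines. These SDs come from probes that share the same RNA and array, so they leave out the spread between cultures.

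The brighter PSAT1 probe set read 143 on the hairpin array of CL1-5 against 1760.0 on its non-silencing array, a 12.3-fold fall. In CL1-0 it read 5494 with the PSAT1 vector against 4214 with the empty vector, 1.30-fold apart. The dimmer probe set read 107 on the hairpin array against 384 on the non-silencing array of CL1-5, a 3.58-fold fall, and 1617 with PSAT1 against 1509 with vector in CL1-0. The size of the fall thus differed between the probe sets. The labels call the cells type II alveolar cells. Of 9 alveolar type II markers with a probe set, 6 were above the floor on every array, namely SFTPB, SFTPC, ABCA3, LAMP3, NAPSA and NKX2-1. The brightest reading among them was 268, for ABCA3 in CL1-0 with PSAT1. SFTPD, SLC34A2 and HHIP were under the floor on every array. EPCAM, CDH1 and KRT19, which mark epithelium, were under the floor on every array. KRT8 and KRT18 of the same list were above it on every array. KRT18 read 635 with PSAT1 and 757 with vector in CL1-0, and 5657 and 5308 on the CL1-5 hairpin and non-silencing arrays. The 7 fibroblast markers summed to 460.1 on the CL1-0 PSAT1 array and 2812 on the CL1-0 vector array, a difference carried by POSTN and COL3A1, and to 413 and 406 on the CL1-5 hairpin and non-silencing arrays. COL1A2, DCN, LUM and PDGFRA of that list were under the floor on all 4 arrays. PTPRC, CD14, CD3E and CDH5, which mark immune and endothelial cells, were also under the floor throughout. CD79A and PECAM1 of the immune and endothelial list were above the floor on all 4 arrays, at most at 104 and 150. VWF was above it on both CL1-5 arrays, at 55.8 with the hairpin and 50.8 with the non-silencing control. The part of POSTN and COL3A1 in the results was not tested.

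**Figure D1:**
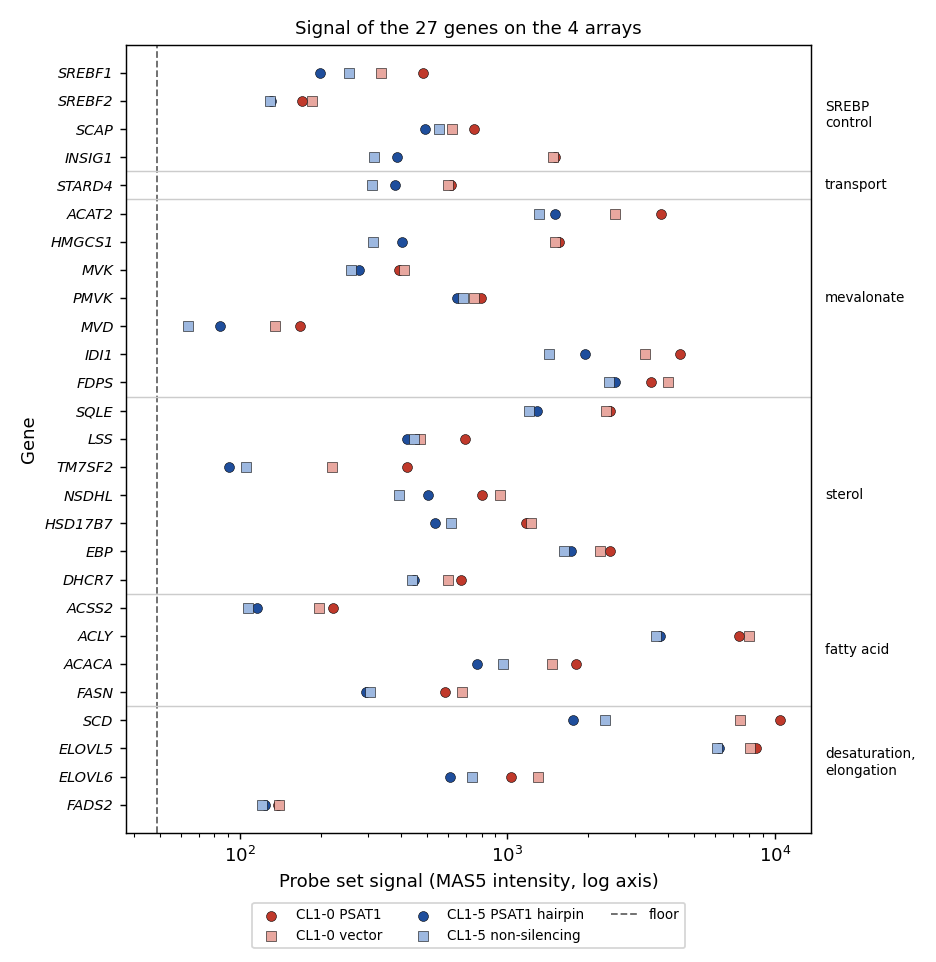
Probe set signal (MAS5 intensity, log axis) of the 27 genes on the 4 arrays, 1 point per array, grouped by role, with the floor of 49.0 as a dashed line. For HMGCS1, INSIG1 and SCD the 2 CL1-5 points lie well to the left of the 2 CL1-0 points, while within a line the points of a gene lie close together.

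None of the 27 genes analysed rose or fell with the PSAT1 vector in CL1-0. Of the 27, 0 reached 2-fold, against 3.41% of all 13167 genes measured in that pair. The median log2 ratio was 0.07 over the set and -0.02 over all genes, and 18 of the 27 ratios were positive, against 47.5% over all genes. With median centring, or with the mean over a gene's probe sets, 14 were positive. IDI1 reached 3.16-fold when probe sets shared by several transcripts were left out. The probe sets listed under both FADS1, a gene of the list, and MIR1908 were not counted. They were 2.05-fold to 2.13-fold higher with PSAT1. In RNA from whole cultures, fewer cells expressing a gene and less RNA per cell cannot be told apart.

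Among the SREBP regulators of CL1-0, SREBF1 read 482 with PSAT1 against 336 with vector, a log2 ratio of 0.52. Its dimmer probe set went the other way, at 86.0 against 102, so the sign of the SREBF1 ratio depends on the probe set. SREBF2 read 170 against 185, a log2 ratio of -0.13. SCAP, the escort, read 747 against 618. INSIG1, the sterol-dependent anchor, read 1509 against 1477, and STARD4, which moves cholesterol between membranes, read 615 against 597. Their log2 ratios were 0.03 and 0.04, and the 3 probe sets of INSIG1 ran from -0.19 to 0.07.

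In the mevalonate route of CL1-0, ACAT2, the cytosolic thiolase that joins 2 acetyl-CoA molecules, read 3746 with PSAT1 against 2530 with vector (log2 ratio 0.57). IDI1, which isomerises isopentenyl diphosphate, read 4419.9 against 3263 (0.44). Its other probe sets had ratios of 0.42, 0.78 and 1.66, the last a dim one at 321 against 101 that was under the floor in CL1-5. HMGCS1, the synthase of HMG-CoA, read 1556 against 1509 (0.04), and its other probe set had a ratio of -0.38. The kinases MVK and PMVK had ratios of -0.06 and 0.08, the decarboxylase MVD 0.31, and the farnesyl diphosphate synthase FDPS -0.21. The route as a whole therefore held small ratios of both signs, 5 positive and 2 negative among 7 genes.

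The sterol enzymes held the largest ratio of the set in CL1-0. TM7SF2, a sterol C14 reductase, read 419 with PSAT1 against 219.9 with vector, 1.91-fold apart, and was the only 1 of the 27 past 1.5-fold, where 13.0% of all genes lay. LSS, which closes squalene epoxide into lanosterol, read 694 against 470.1 (log2 ratio 0.56). SQLE, the squalene epoxidase, read 2417 against 2340 (0.05). The remaining members, NSDHL of C4 demethylation, the ketosteroid reductase HSD17B7, the isomerase EBP and DHCR7, which makes cholesterol from its last precursor, lay between -0.23 and 0.17.

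In the fatty acid branch of CL1-0, SCD had the most positive ratio and ELOVL6 the most negative. SCD, which puts the first double bond into saturated fatty acids, read 10463 with PSAT1 against 7429 with vector on its brightest probe set, a log2 ratio of 0.49. Its 3 other probe sets had ratios of 0.75, 0.79 and 0.86, so all 4 were positive. ACACA, the carboxylase that makes malonyl-CoA, read 1802 against 1461 (0.30), but its second probe set read 297 against 482 (-0.70). FASN, which builds palmitate, read 584 against 675, and both its probe sets had a ratio of -0.21. ACLY, which supplies cytosolic acetyl-CoA from citrate, read 7337 against 8044 (-0.13), and its 2 other probe sets had -0.42 and -0.24. ELOVL6, which extends palmitate, read 1030.3 against 1298 (-0.33), with a second probe set at -0.50 and a dim one, under the floor in CL1-5, at 98.7 against 67.7 (0.54). ACSS2, which activates acetate, had 0.18, the elongase ELOVL5 0.07 and the desaturase FADS2 -0.01. In CL1-0 the branch thus had SCD and ACACA above the control and ELOVL6, FASN and ACLY below it on the chosen probe sets.

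At 1.25-fold, a threshold chosen after the values were seen, 7 of the 27 ratios were past it in CL1-0, 6 positive and 1 negative. Over all genes 34.9% were past it (19.9% positive and 15.0% negative), and 36.0% of bright genes, those with at least 1 array of the pair at a signal of 213 or over (the 75th percentile of all arrays), where 7 of 24 members were. These shares are near the background. Probe sets of the same sign throughout were found for 7 of the 17 members with more than 1 probe set above the floor.

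**Figure D2:**
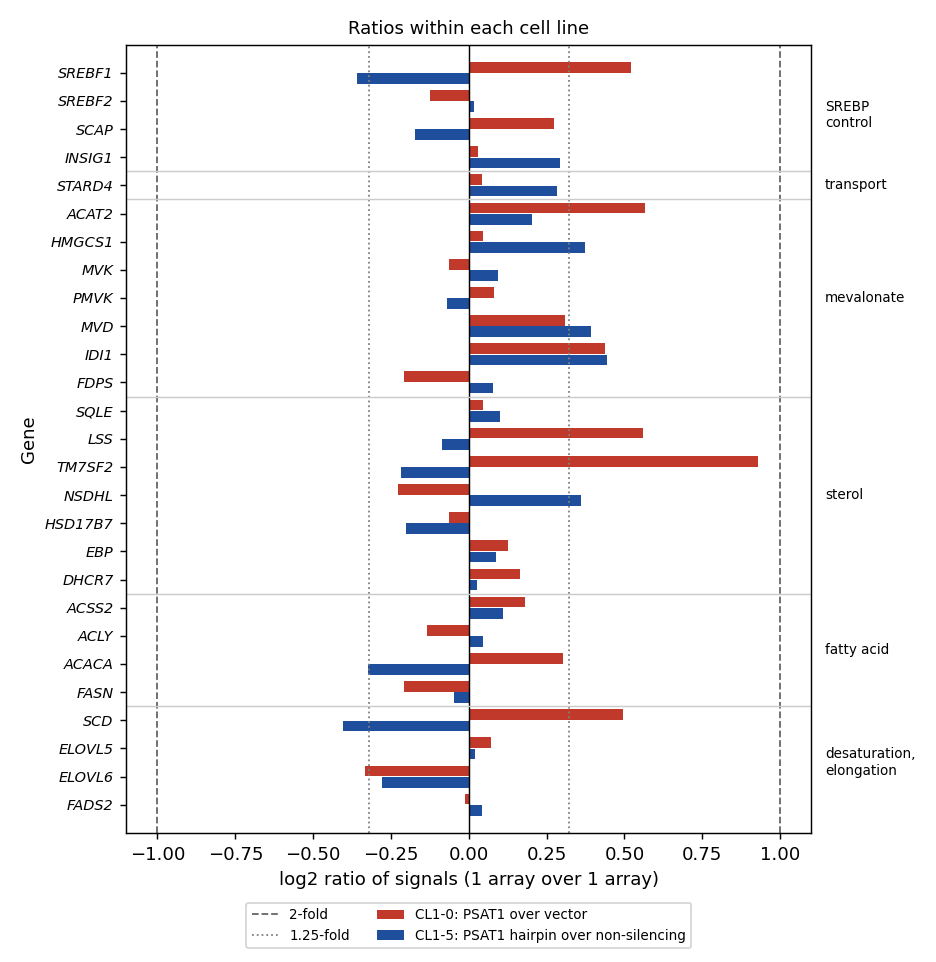
Log2 ratio of signals for the 27 genes, PSAT1 vector over empty vector in CL1-0 (red) and PSAT1 hairpin over non-silencing hairpin in CL1-5 (blue), 1 array over 1 array. No bar reaches the dashed 2-fold lines. TM7SF2 comes closest at 0.93 in CL1-0, and SREBF1, ACACA and SCD point right in CL1-0 and left in CL1-5.

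In CL1-5 the hairpin against PSAT1 also left all 27 genes under 2-fold, and 0 reached 1.5-fold. Sterol genes had the most positive ratios, among them IDI1, MVD, HMGCS1 and NSDHL, while SCD, SREBF1 and ACACA had the most negative. Over all 12852 genes measured in that pair, 0.794% were past 2-fold and 3.79% past 1.5-fold. The median log2 ratio was 0.04 over the set and 0.02 over all genes, with 17 of 27 ratios positive, against 52.7% over all genes.

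Among the mevalonate enzymes of CL1-5, IDI1 read 1948 on the hairpin array against 1431 on the non-silencing array, a log2 ratio of 0.45, and its 2 other probe sets above the floor had 0.36 and 0.46. MVD read 83.9 against 63.9 (0.39) on its only probe set, near the floor. HMGCS1 read 405 against 313 (0.37), and 0.24 on its other probe set. ACAT2 read 1504 against 1306 (0.20). MVK had 0.10 and FDPS 0.08, while PMVK had -0.07. The hairpin array was thus above the control for 6 of 7 genes of this route, by 1.36-fold at most.

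Of the sterol enzymes in CL1-5, NSDHL read 505 on the hairpin array against 393 on the non-silencing array, a log2 ratio of 0.36, and 0.32 on its second probe set. SQLE had 0.10, EBP 0.09 and DHCR7 0.03. LSS had -0.08, HSD17B7 -0.20 and TM7SF2 -0.22, so the 7 enzymes were split 4 to 3. INSIG1 read 387 against 316 (0.29), but its 3 probe sets ran from -0.20 to 0.29. STARD4 read 379 against 311 (0.29) on its single probe set.

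The fatty acid branch of CL1-5 had its largest ratio in SCD, which read 1757 on the hairpin array against 2325 on the non-silencing array, a log2 ratio of -0.40. All 4 SCD probe sets were negative, from -0.46 to -0.30. SREBF1 read 199 against 256 (-0.36), with its dimmer probe set at -0.01. ACACA read 769.6 against 963 (-0.32), with its second probe set at -0.09. ELOVL6 read 607 against 736 (-0.28), and -0.41 on its second probe set. The other genes of the branch, ACSS2, ACLY, FASN, ELOVL5 and FADS2, lay between -0.05 and 0.11, and SCAP and SREBF2 had -0.17 and 0.02.

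Past 1.25-fold in CL1-5 lay 7 of the 27 genes, 4 positive (HMGCS1, MVD, IDI1 and NSDHL) and 3 negative (SREBF1, ACACA and SCD). The background was 15.4% of all genes, 7.25% positive and 8.14% negative. Among the bright genes, 6 of 22 members and 16.5% of all genes were past it. All probe sets had the same sign for 12 of 17 members with more than 1 above the floor.

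**Figure D3:**
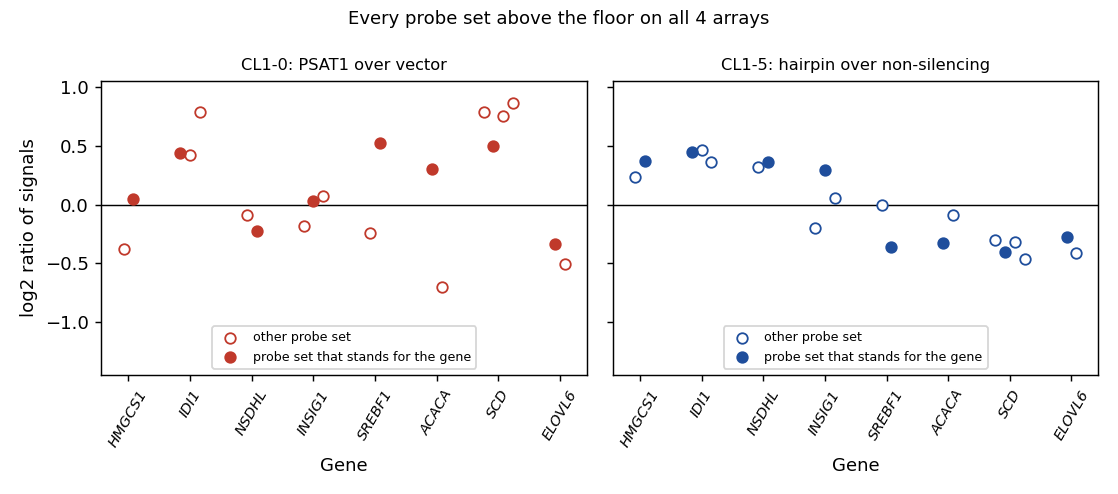
Log2 ratio of every probe set above the floor on all 4 arrays for 8 genes picked after their values were seen, in CL1-0 (left) and CL1-5 (right), with the probe set that stands for the gene filled. All 4 probe sets of SCD lie above 0 in CL1-0 and below 0 in CL1-5, those of IDI1 lie above 0 in both, and those of SREBF1 and ACACA fall on both sides of 0 in CL1-0.

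The vector carries PSAT1 and the hairpin targets it, and the 2 pairs share no array. The 2 PSAT1 probe sets were only 1.30-fold and 1.07-fold above the control in CL1-0. In CL1-5 they were 12.3-fold and 3.58-fold lower with the hairpin and still above the floor. Over the 27 genes, 13 had opposite signs in the 2 pairs (48.1%), against 57.2% of the 11812 genes measured in both with no ratio of 0. The ratios correlated across the 27 genes with Pearson r = -0.21 and Spearman rho = -0.15, a description over genes that share their arrays. SREBF1 and SCD were past 1.25-fold in both pairs with opposite signs, and IDI1 was past it in both with positive signs. Over all 11999 genes measured in both pairs, 4.57% were opposite and 2.26% the same by that rule. TM7SF2, LSS, SCAP, ACACA and PMVK were also positive in CL1-0 and negative in CL1-5, and FDPS, NSDHL, SREBF2, MVK, ACLY and FADS2 ran the other way.

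Between the control arrays, 9 genes of the set (33.3%) differed by 2-fold or more as deposited, near the 29.9% of all genes. Within a line none did, and there the shares of all genes were also far smaller, 3.41% in CL1-0 and 0.794% in CL1-5. On the probe sets that stand for them, HMGCS1, INSIG1 and SCD were lower in CL1-5 than in CL1-0 on the deposited scale. They were also lower under all 3 other scalings of the arrays, and no gene of the set was higher under any scaling. On the deposited scale all 27 log2 ratios were negative, while 23.2% of those of all genes were positive. The 9 genes were all lower, against 24.7% lower and 5.14% higher (29.9% in all) among the 13706 genes measured. Past 1.5-fold lay 18 members and 52.7% of all genes, and past 1.25-fold 23 members and 72.1%. The arrays of CL1-5 were dimmer as a whole. Their means, trimmed by 2% at both ends, were 211 and 212 with the hairpin and the non-silencing control, against 328 and 329 with PSAT1 and vector in CL1-0. The median log2 ratio was -0.48 over all genes and -0.87 over the set. After quantile normalization, which gives the arrays one distribution, these medians were 0.00 and -0.21. Then 3 of the 27 (11.1%) were 2-fold lower and 0 higher, against 8.86% lower and 9.4% higher among all genes (18.3% in all). Of the ratios, 18 were negative and 9 positive. Marker genes moved between the lines too. The 5 epithelial markers summed to 6647 in the CL1-5 non-silencing control against 899 in the CL1-0 vector control, most of it KRT18, with EPCAM, CDH1 and KRT19 under the floor on all arrays, and the 7 fibroblast markers summed to 406 in CL1-5 against 2812 in CL1-0. Their part in the differences between the lines was not tested. The CL1-0 control carried an empty vector and the CL1-5 control a non-silencing hairpin, so line and construct cannot be told apart.

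HMGCS1 read 313 in the CL1-5 non-silencing control, against 1509 in the CL1-0 vector control. That is 4.83-fold lower as deposited and 3.0-fold lower after quantile normalization, and its second probe set was 4.47-fold lower as deposited. INSIG1 read 316 in CL1-5 against 1477 in CL1-0, 4.68-fold lower as deposited and 2.90-fold after quantile normalization, with its other probe sets 2.26-fold and 3.68-fold lower as deposited. SCD read 2325 in CL1-5 against 7429 in CL1-0, 3.20-fold and 2.09-fold lower on the same scales. Its other probe sets were 1.96-fold, 2.74-fold and 4.32-fold apart as deposited, all below CL1-0. The other probe sets of these 3 genes were not compared under the other scalings. Of the 3 genes SCD came closest to the 2-fold limit over the settings tried, at its nearest a log2 ratio of -1.04. On both arrays of CL1-5 these 3 genes read below both arrays of CL1-0 as deposited. So did every other gene of the set, on CL1-5 arrays that were dimmer as a whole.

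The 6 other genes that were 2-fold lower on the deposited scale fell short of 2-fold after quantile normalization. NSDHL read 393 in CL1-5 against 939 in CL1-0, with log2 ratios of -1.26 as deposited and -0.54 after quantile normalization. IDI1 read 1431 against 3263 (-1.19 and -0.46 on those scales), ACLY 3596 against 8044 (-1.16 and -0.58) and FASN 305 against 675 (-1.15 and -0.48). MVD read 63.9 against 135 (-1.08 and -0.77), and TM7SF2 106 against 219.9 (-1.06 and -0.62). HSD17B7, SQLE, ACAT2 and STARD4 followed, from -1.0 to -0.94 as deposited and from -0.28 to -0.21 after quantile normalization. All of these genes lay below the median of all genes on both scales.

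At the other end, LSS read 448 in CL1-5 against 470.1 in CL1-0, PMVK 682 against 751 and SCAP 553 against 618. Their log2 ratios of -0.07, -0.14 and -0.16 became 0.58, 0.57 and 0.54 after quantile normalization, so their sign depends on the scaling. The same change of sign occurred for SREBF1 (-0.39 and 0.20), EBP (-0.45 and 0.28), DHCR7 (-0.45 and 0.23), ELOVL5 (-0.40 and 0.13), FADS2 (-0.21 and 0.20) and ACACA (-0.60 and 0.12). SREBF2 (-0.52 and -0.07) and FDPS (-0.74 and -0.09), with MVK (-0.66 and -0.05) and ELOVL6 (-0.82 and -0.09), lay near 0 after quantile normalization, and ACSS2 had -0.87 and -0.44. Relative to the whole array, the transcripts for the SREBPs and their escort were therefore not among those that fell, while INSIG1 was. By arm, the median after quantile normalization was -0.22 over the 14 mevalonate and sterol enzymes and -0.27 over the 8 fatty acid genes. All probe sets had one sign as deposited for 15 of 17 members with more than 1, the exceptions being LSS and ELOVL5. On that scale only 23.2% of the ratios of all genes were positive. The share of all genes with such agreement was not computed for any of the comparisons.

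**Figure D4:**
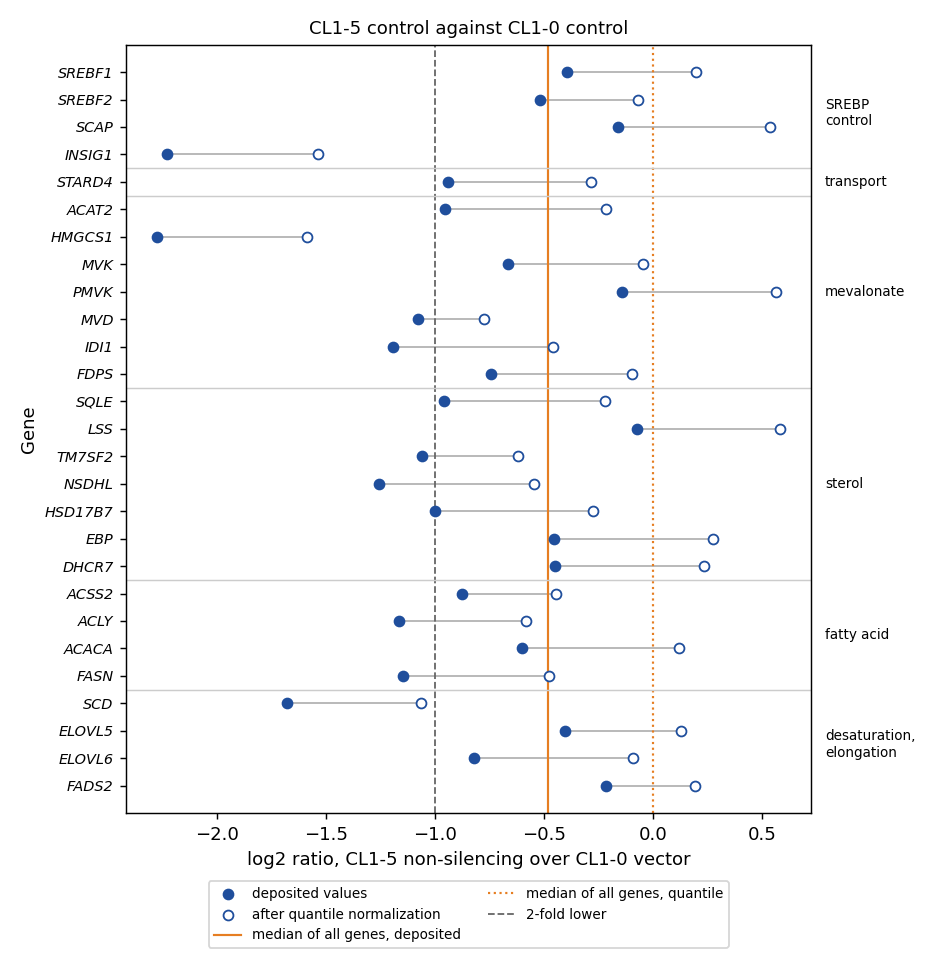
Log2 ratio of the CL1-5 non-silencing array over the CL1-0 vector array for the 27 genes, as deposited (filled) and after quantile normalization (open), with the median of all genes on each scale in orange. HMGCS1, INSIG1 and SCD stay left of the dashed 2-fold line on both scales, and the other open points lie between -0.77 and 0.58.

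Promoters are shown for the 3 genes whose chosen probe sets were lower in CL1-5 under every scaling. SREBF2 is shown too, as the single member whose window held the sterol element searched for. RefSeq windows on GRCh38.p14 were found for 24 of the 27 genes, all but ACAT2, FASN and SQLE, 33 windows in all, some genes having several listed starts. The 250 bases before each start were searched on both strands for TCACNCCAC, a form of the sterol regulatory element bound by SREBPs, CCAAT, bound by NF-Y, GGGCGG, the GC box bound by Sp1, and CACGTG, the E-box. No motif contains another, and matches of the GC box overlap each other once in INSIG1. Capitals mark these matches on either strand, each sequence runs 5' to 3' along the gene's strand and ends at the base before the start site, and for HMGCS1 the first of its 2 listed windows is shown.
HMGCS1, chr5:43313413-43313662, minus strand: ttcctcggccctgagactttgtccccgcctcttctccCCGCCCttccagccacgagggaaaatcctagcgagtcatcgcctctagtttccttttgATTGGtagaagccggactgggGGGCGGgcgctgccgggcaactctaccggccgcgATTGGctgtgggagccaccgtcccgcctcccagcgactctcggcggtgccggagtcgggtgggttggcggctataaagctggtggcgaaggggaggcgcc
INSIG1, chr7:155297628-155297877, plus strand: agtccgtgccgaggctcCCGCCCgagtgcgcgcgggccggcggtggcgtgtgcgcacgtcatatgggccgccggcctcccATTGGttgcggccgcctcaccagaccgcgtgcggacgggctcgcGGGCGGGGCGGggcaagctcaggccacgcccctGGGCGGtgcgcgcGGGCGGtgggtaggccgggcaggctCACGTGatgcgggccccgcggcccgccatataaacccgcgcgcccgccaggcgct
SCD, chr10:100346983-100347232, plus strand: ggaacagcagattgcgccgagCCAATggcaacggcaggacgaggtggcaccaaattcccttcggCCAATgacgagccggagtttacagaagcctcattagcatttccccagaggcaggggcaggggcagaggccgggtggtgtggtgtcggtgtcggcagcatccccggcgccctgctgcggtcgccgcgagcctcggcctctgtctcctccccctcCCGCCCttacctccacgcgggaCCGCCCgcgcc
SREBF2, chr22:41832855-41833104, plus strand: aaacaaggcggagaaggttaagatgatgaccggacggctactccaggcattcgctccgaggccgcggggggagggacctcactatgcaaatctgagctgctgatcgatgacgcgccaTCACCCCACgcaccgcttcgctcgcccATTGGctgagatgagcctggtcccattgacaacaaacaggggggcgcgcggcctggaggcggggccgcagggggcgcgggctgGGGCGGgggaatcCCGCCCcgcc

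SREBF2 held the sterol element at 133 to 125 bases before its start, with an inverted CCAAT box at 106 to 102. That element was found in 0.883% of all 35116 windows, and in no other window of the set. CCAAT was found in 22 of the 33 windows (66.7%), belonging to 19 of the 24 genes, against 32.0% of all windows and 32.6% of the windows of genes above the floor on at least 1 array. NF-Y is a known partner of SREBPs at sterol genes. HMGCS1 held 2 inverted CCAAT boxes, SCD 2 in the forward direction and INSIG1 1 inverted. The GC box was found in 84.8% of the windows of the set, against 61.3% of those of genes above the floor, and the E-box in 9.09% against 8.05%, among them INSIG1 at 55 to 50 bases before its start. A match is a description of these letters, and binding was not measured.

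Further genes of sterol and fatty acid handling were taken from 5 lists, of which 63 of 76 genes had a named probe set. With the PSAT1 vector in CL1-0, 1 of 57 measured (1.75%) was past 2-fold, against 3.41% of all genes. The 1 gene was ELOVL2, which extends polyunsaturated fatty acids and read 239.9 with PSAT1 against 104 with vector, 2.31-fold higher. With the hairpin in CL1-5, 0 of 60 were past 2-fold, against 0.794% of all genes.

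Between the control arrays, 23 of 59 measured further genes (39.0%) were past 2-fold as deposited, 3 higher and 20 lower in CL1-5. Over all genes 29.9% were, 5.14% higher and 24.7% lower. After quantile normalization 13 of 60 (21.7%) were past it, 8 higher and 5 lower. The share of all genes was then 18.3%, 9.4% higher and 8.86% lower. The median log2 ratio of the further genes was -0.54 as deposited and 0.04 after quantile normalization, beside -0.48 and 0.00 for all genes. These shares of all genes are also the background for the counts of single lists below.

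Of 6 further sterol synthesis enzymes, 3 were 2-fold lower in CL1-5 as deposited and 0 after quantile normalization. SC5D, a late sterol desaturase, read 565 in the CL1-5 non-silencing control against 1642 in the CL1-0 vector control, with log2 ratios of -1.54 as deposited and -0.81 after quantile normalization. GGPS1, which makes geranylgeranyl diphosphate, read 561 against 1262, and LBR, a second sterol C14 reductase, 1843 against 3755. Of 11 genes of SREBP processing and targeting, 3 were lower as deposited, while 2, INSIG2 and NPC2, were higher and 0 lower after quantile normalization. Their median was -0.12 as deposited and 0.58 after quantile normalization. NPC1, the lysosomal cholesterol exporter, read 388 in CL1-5 against 952 in CL1-0, ERLIN2, a membrane protein of the endoplasmic reticulum, 578 against 1374, and PCYT2 of phosphatidylethanolamine synthesis 133 against 274. None of these 6 reached 2-fold after quantile normalization, where their ratios ran from -0.81 to -0.35.

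Of 7 genes of sterol efflux and storage, 1 was higher and 2 lower as deposited, and 2 higher and 0 lower after quantile normalization. ABCA1, which exports cholesterol from the cell, read 1205 in CL1-5 against 16.5 in CL1-0, under the floor, and was at least 24.6-fold higher. LIPA, the lysosomal acid lipase, read 1298 in CL1-5 against 3901 in CL1-0, with log2 ratios of -1.59 as deposited and -0.89 after quantile normalization. MYLIP, the ligase that degrades the LDL receptor, read 158 against 327 (-1.05 and -0.52). NCEH1, a cholesteryl ester hydrolase, read 311 against 186 (0.74 and 1.28), and was higher after quantile normalization. ABCA1 thus stood apart on both scales, and it was high on both arrays of CL1-5, at 892 with the hairpin.

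Further genes of fatty acid synthesis and elongation included 2 higher and 8 lower of 23 as deposited, and 3 higher and 4 lower of 24 after quantile normalization. ME1, the malic enzyme that supplies NADPH, read 1203 in CL1-5 against 69.1 in CL1-0, 17.4-fold higher. ELOVL2 read 405 against 104, 3.90-fold higher. ELOVL4, which makes very long chains, read 53.0 in CL1-5 against 227 in CL1-0, 4.28-fold lower as deposited and 3.39-fold after quantile normalization. SLC25A1, which exports citrate from mitochondria to the step of ACLY, read 358 against 1431, 4.0-fold lower as deposited and 2.46-fold after quantile normalization. Of 12 genes of fatty acid oxidation, 4 were lower as deposited, and 1 lower and 1 higher after quantile normalization. The higher one, EHHADH, a peroxisomal enzyme, read 97.5 in CL1-5 against 47.6 in CL1-0, under the floor. It was at least 2.32-fold higher after quantile normalization. CPT1A, which admits fatty acids to mitochondria, read 481 in CL1-5 against 1862 in CL1-0, 3.87-fold and 2.34-fold lower on those scales. DECR1, CPT2 and HADHA, enzymes and a transferase of the same pathway, had log2 ratios of -1.64, -1.09 and -1.07 as deposited and from -0.92 to -0.38 after quantile normalization.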

How the data were processed

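Total RNA was measured on 4 one-colour Affymetrix arrays, 1 per group. The authors deposited linear intensity per probe set, made with MAS5 according to the submitters' processing notes. The version and scaling target are not given in the sources used here. Of 54675 probe sets, 62 were controls. The platform annotation gave 1 symbol to 41097 probe sets, several to 1801 and none to 11777, and 41043 of the first were matched to a RefSeq gene table that updated symbols. Probe sets of several symbols named no gene, and Y-linked and X-inactivation genes were left out. A gene took its probe set of highest mean log2 signal over the 4 arrays. Signals under the floor of 49.0 (the pooled 50th percentile) were raised to it, and genes with at least 1 array of a pair above it were taken as measured there. Below-floor genes give bounds, written "at least". Ratios used Python 3.11.15, numpy 2.4.6 and pandas 2.3.3. The number of arrays limits precision, and no test, SE or p-value was computed. The code of the 2-fold rule was run on simulated data with planted changes. That run checked the arithmetic only and says nothing of the spread between cultures. Alternatives were 3 scalings, floors at the 25th and 65th percentiles, 2 probe set choices and 1.5-fold and 1.25-fold calls. All members are named, and from the further lists those past 2-fold, at most 4 per list and comparison. Members and lists were chosen with earlier results of these data known.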

Additional observations from a re-analysis of the deposited data

Results flagged for a closer look

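Probe sets listed under both FADS1, the delta-5 desaturase, and the microRNA gene MIR1908 stood outside the comparisons above because they carry 2 symbols, and they name neither gene. The values of these 3 probe sets drew attention because each was past 2-fold in the CL1-0 pair, where no member was. The first read 2843 with PSAT1 against 1383 with vector, 2.05-fold higher. The second read 2597 against 1221, 2.13-fold higher, and the third 2555 against 1238, 2.06-fold higher. In CL1-5 they read 533, 584 and 708 on the hairpin array against 609.8, 714 and 800.2 on the non-silencing array, with log2 ratios of -0.19, -0.29 and -0.18. The signs are those of the 4 SCD probe sets in each pair.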

How the results depend on the processing

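No paired analysis was possible because each group has 1 array and the labels carry no replicate numbers, and for the same reason no array could be left out. Within the CL1-0 pair, 1 member was called instead of 0 without multi-transcript probe sets, namely IDI1, whose remaining probe set read 321 with PSAT1 against 101 with vector (3.16-fold), and 1, TM7SF2, at 1.5-fold. The 1.25-fold rule, chosen after the data were seen, gave 7 in CL1-0, 7 in CL1-5 and 23 between the lines. Between the lines, 9 members called as deposited became 3 under quantile normalization, 3 with a common trimmed mean and 3 with median centring, and 18 at 1.5-fold. The median there was -0.87 as deposited and -0.21, -0.23 and -0.26 under those 3 scalings, in that order, where the median of all genes was 0.00, 0.11 and 0.09. The floors and probe set choices left the counts between the lines at 8 or 9. No member called at 2-fold changed sign. Between the lines ACACA, past 1.5-fold as deposited, did, with log2 ratios of -0.60 as deposited and 0.12 after quantile normalization. So did SREBF1, SREBF2, EBP, DHCR7 and ELOVL5, past 1.25-fold as deposited, in some settings. Signs of single genes changed in 8 of 188 gene and setting combinations in CL1-0, 2 of 186 in CL1-5 and 29 of 188 between the lines.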

Other observations

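Probe sets listed under both CYP51A1, the lanosterol demethylase, and LRRD1 name neither gene. The brighter read 1483 on the hairpin array against 1066 on the non-silencing array in CL1-5 (log2 ratio 0.48) and 3477 with PSAT1 against 3741 with vector in CL1-0 (-0.11). The dimmer had ratios of 0.42 and -0.38 in the same pairs. Between the control arrays they were 3.51-fold and 3.44-fold lower in CL1-5 as deposited.

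Among the further genes, INSIG2, a second sterol-dependent anchor of SCAP, read 431 in the CL1-5 non-silencing control against 302 in the CL1-0 vector control. Its log2 ratio was 0.52 as deposited and 1.13 after quantile normalization, beside -2.23 and -1.53 for INSIG1. NPC2, which hands on lysosomal cholesterol, read 3154 in CL1-5 against 2382 in CL1-0, with ratios of 0.40 and 1.09 on those scales.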
